A study of Mus musculus with 10 samples.

Results

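Homeostatic chemokines and lymphocyte homing receptors are the constantly expressed signals and sensors that place lymphocytes inside a lymph node, and 9 of them were described here in tumor-draining lymph nodes (TDLNs). The genes were chosen by symbol for these roles. They are the chemokines Ccl19, Ccl21a, Cxcl12 and Cxcl13 and the receptors Ccr7, Cxcr4, Cxcr5, S1pr1 and Gpr183, 9 of the 33585 genes in the expression tables. All 9 exceeded a mean of 1 FPKM (fragments per kilobase of transcript, scaled to all mapped fragments of a library), so all 9 were among the 13334 genes tested.

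Bulk RNA-seq was performed on 10 TDLN samples of female BALB/c mice, bought at 6 weeks of age, that carried orthotopic tumors of 4T1, a mouse mammary carcinoma cell line. In all mice the tumor was treated by microwave ablation (MWA, 5 W), which destroys tissue with heat, on day 10 after injection of the tumor cells, and nodes were collected on day 15. Mice of the group labelled MWA (5 samples) received PBS from the day of ablation, and those of the group labelled MWA+2DG (5 samples) received 2DG (2-deoxy-D-glucose, a glucose analogue that inhibits glycolysis) at 500 mg/kg every 2 days. The comparison addresses how systemic 2DG after ablation alters gene expression in the whole node, and nodes without ablation were not analysed here. The labels give 1 library per sample.

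In a resting node, fibroblastic reticular cells of the T zone secrete the CCR7 ligands CCL19 and CCL21, which bring in and hold naive T cells and mature dendritic cells. Follicular stromal cells secrete CXCL13, which draws B cells and follicular helper T cells through CXCR5, while GPR183 (EBI2) follows oxysterol ligands and moves activated B cells to the outer follicle. CXCL12 acts through CXCR4 to retain cells in the node and to sort cells within germinal centres, and S1PR1 senses sphingosine 1-phosphate (S1P) and directs lymphocytes out into the lymph.

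In the GRCm38 reference with GENCODE M21, used here for position and sequence, the CCR7 ligand genes lie close together on chromosome 4, Ccl19 (ENSMUSG00000071005) at chr4:42754525-42756577 and Ccl21a (ENSMUSG00000094686) at chr4:42772860-42773993, both on the minus strand. This locus also holds near-identical copies, and a read from a shared stretch cannot be tied to 1 gene. All copies and base differences given here are those of the reference. Whether the BALB/c mice carry the same ones was not examined. The coding sequence of Ccl21a (402 bases) differed from the copies Ccl21b, Gm10591, Gm13304 and Gm21541 at 2 bases, T84A and C194T (the base of Ccl21a first, then the position counted from 1 at the A of the start codon, then the base of the copy). The 4 copies were identical to each other over the coding sequence. The stretches around the 2 differences are shown because they are all that separates the coding sequences, with the differing base in capitals (bases 64 to 104 and 174 to 214).
Ccl21a, bases 64 to 104: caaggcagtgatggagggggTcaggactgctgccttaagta
Ccl21b and the other 3 copies, bases 64 to 104: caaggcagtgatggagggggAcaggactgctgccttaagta
Ccl21a, bases 174 to 214: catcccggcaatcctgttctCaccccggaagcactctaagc
Ccl21b and the other 3 copies, bases 174 to 214: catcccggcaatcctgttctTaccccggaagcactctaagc

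The coding sequence of Ccl19 (327 bases) had closer copies still. The annotated pseudogene Ccl19-ps3 (chr4:42132559-42134171) was identical over 324 bases, and Gm2564 (chr4:42629719-42631714), annotated as protein coding, differed only at T2C. Of all 31-base stretches in the coding sequence of Ccl19, 99.3% were also in Gm2564, 99.0% in Ccl19-ps3, 79.8% in the pseudogene Gm12407 (C198T and G224C) and 68.0% in Ccl19-ps1. For Ccl21a, 83.3% of the stretches were in each copy. The other 7 genes shared at most 2.1% of theirs with any other annotated gene. The stretches that differ are shown for Gm2564, whose single difference falls in the start codon, and for Gm12407 (capitals, differing bases).
Ccl19, bases 1 to 41: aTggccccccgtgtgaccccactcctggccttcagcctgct
Gm2564, bases 1 to 41: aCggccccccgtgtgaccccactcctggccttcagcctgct
Ccl19, bases 184 to 224: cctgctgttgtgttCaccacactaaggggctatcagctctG
Gm12407, bases 184 to 224: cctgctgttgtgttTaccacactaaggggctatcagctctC

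The other members are single genes. Ccr7 (ENSMUSG00000037944) lies at chr11:99144196-99155077, Cxcl13 (ENSMUSG00000023078) at chr5:95956951-95961068 and Cxcr5 (ENSMUSG00000047880) at chr9:44511787-44561877. Gpr183 (ENSMUSG00000051212) lies at chr14:121952551-121965195, Cxcl12 (ENSMUSG00000061353) at chr6:117168535-117181367, Cxcr4 (ENSMUSG00000045382) at chr1:128588199-128592293 and S1pr1 (ENSMUSG00000045092) at chr3:115710433-115715072.

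Across the whole table, replicates 1 and 2 of both groups stood apart from replicates 3 to 5. The first principal component held 36.4% of the variance and separated these 2 sets, and limma called 488 genes different between the sets (Benjamini-Hochberg adjusted p below 0.05). The sample labels name no such sets. The sets were drawn from these same values, so this count and the splits by set given below are a description only. The summed FPKM of 6 liver transcripts (Alb highest on average) was 22.0 to 27.2 in replicates 1 and 2 and 78.0 to 180 in replicates 3 to 5. Serpina1a, at 22.0 to 30.4 FPKM in MWA and 21.8 to 27.2 FPKM in MWA+2DG libraries, made up most of the lower sums. Alb ranged from 0.0 to 102 FPKM in MWA and from 0.0449 to 68.1 FPKM in MWA+2DG libraries. Each set held as many MWA as MWA+2DG libraries, so the differences of the 9 genes are also given within the sets (replicates 1 and 2 first). Summed FPKM over all genes was between 312143 and 359984 per library, and 24327 to 25226 genes were above 0.

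The 9 genes spanned a wide range of levels, compared here in FPKM, which is per length. Ccl21a was the highest at 1194 ± 237 FPKM (SD, n = 10) and was above every other member in all 10 libraries. Cxcl13 (254 ± 79.5), Ccl19 (140 ± 30.8), Cxcr4 (107 ± 33.3) and Ccr7 (81.3 ± 11.5) followed. Cxcr5 (56.1 ± 7.52) and S1pr1 (53.8 ± 5.52) were next, Cxcr5 being the higher of the 2 in 6 of 10 libraries, and Gpr183 (26.5 ± 4.16) and Cxcl12 (22.0 ± 3.75) were the lowest. The library ranges did not overlap between Ccl21a and Cxcl13 or between S1pr1 and Gpr183, and overlapped between every other pair of neighbors in this order. The order of Ccl21a and Ccl19 against the rest rests on how reads were divided among their copies.

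None of the 9 genes passed the test between the MWA+2DG and MWA groups by limma on log2(FPKM + 1). No gene of the 13334 passed an adjusted p below 0.05 (0.0%), while 567 (4.25%) had an unadjusted P below 0.05, and the lowest unadjusted P among the 9 was 0.177, for Ccr7. The authors' rule, an unadjusted P below 0.05 with a log fold change beyond 0.25 (read here as log2), took 376 genes (2.82%), 127 with higher (0.952%) and 249 with lower values (1.87%) in MWA+2DG, and 0 of the 9. With each library rescaled to a sum of 1000000, the split over all genes was 328 higher and 159 lower, and without MWA+2DG replicate 5 it was 222 higher and 177 lower. The groups overlapped for all 9 genes, against 107 of all genes (0.802%) without overlap. No member differed by more than 0.25 in either direction (8.08% of all genes did). The median log2 fold change was -0.12 over the 9 members and 0.01 over all tested genes, with 4 members above and 5 below 0 (52.6% of all genes above).

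**Figure D1:**
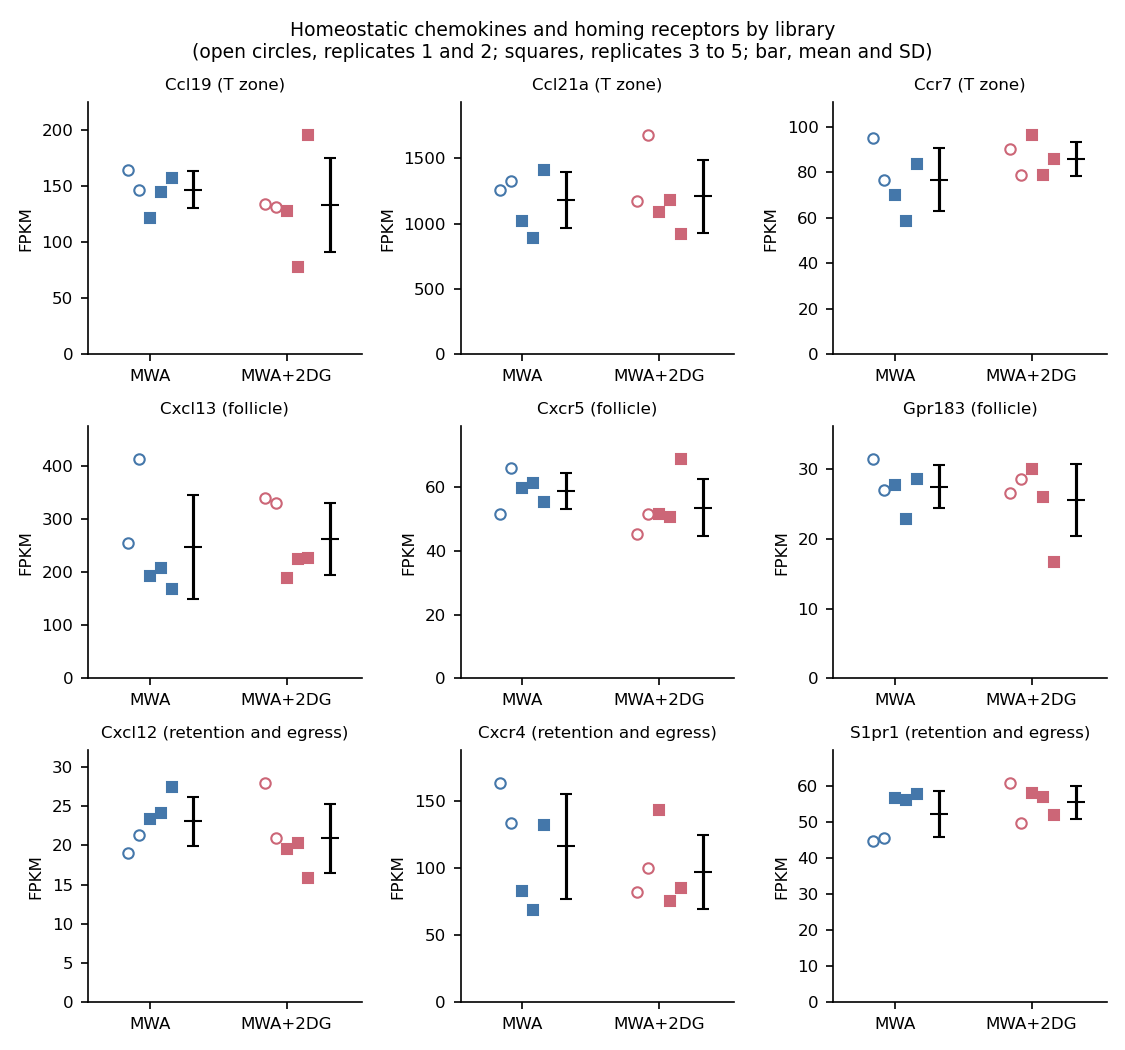
FPKM of each of the 9 genes (vertical axis, from 0) in the 5 MWA and the 5 MWA+2DG libraries, with replicates 1 and 2 as open circles, replicates 3 to 5 as squares and the mean and SD of each group as a bar. The groups overlap for every gene, and Cxcl13 separates by replicate set, 254 to 412 FPKM in replicates 1 and 2 and 168 to 227 in replicates 3 to 5.

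The T zone genes are the ligands Ccl19 and Ccl21a and their receptor Ccr7. Ccl19 was at 164, 147, 122, 145 and 158 FPKM in MWA libraries 1 to 5 and at 134, 131, 128, 77.7 and 196 FPKM in MWA+2DG libraries 1 to 5. The MWA+2DG group held both the lowest and the highest of the 10 values. The means were 147 ± 16.3 and 133 ± 41.9 FPKM (SD over 5 libraries), and the log2 fold change was -0.19 (SE 0.20, 95% interval -0.63 to 0.25, exact two-sided permutation p = 0.476), with -0.23 and -0.17 within the replicate sets. Without MWA+2DG replicate 4 the difference was -0.01, and without replicate 5 of the same group it was -0.34.

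The other CCR7 ligand, Ccl21a, was at 1259, 1324, 1021, 891 and 1408 FPKM in the MWA group and at 1175, 1674, 1087, 1181 and 922 FPKM in the MWA+2DG group. A single MWA+2DG library, replicate 2, was above all MWA libraries, and the others lay within the MWA range. The means were nearly equal, 1181 ± 217 against 1208 ± 281 FPKM, with a log2 fold change of 0.02 (SE 0.17, 95% interval -0.35 to 0.40, exact permutation p = 0.905). It had opposite signs in the sets, 0.12 in replicates 1 and 2 and -0.04 in replicates 3 to 5. The sign also turned when MWA replicate 3 (-0.02), MWA replicate 4 (-0.07) or MWA+2DG replicate 2 (-0.10) was left out. On a linear scale the interval ran from 0.785-fold to 1.32-fold.

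The receptor Ccr7, which naive and central memory T cells, B cells and mature dendritic cells carry, was at 95.0, 76.5, 69.9, 58.5 and 83.4 FPKM in the MWA group and at 90.0, 78.8, 96.1, 78.8 and 85.7 FPKM in the MWA+2DG group. All 5 MWA+2DG libraries were above the MWA median, yet only replicate 3 was above every MWA library. The difference was 0.18 on the log2 scale (SE 0.12, 95% interval -0.09 to 0.45, exact permutation p = 0.206), with -0.02 in replicates 1 and 2 and 0.31 in replicates 3 to 5. Without MWA replicate 1 it was 0.26 (limma, unadjusted P = 0.045), which passes the authors' rule. This was the only case of a member passing that rule in 19 alternatives.

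T cell marker genes were, like Ccr7, higher on average in the MWA+2DG group. All 14 T cell genes in a list of markers had positive log2 fold changes (median 0.18). Their summed FPKM was 479 to 745 in the MWA group and 538 to 700 in the MWA+2DG group, Lck being the highest. Set against these genes, Ccr7 had the same mean in both groups. Its log2 ratio to their mean was 1.16 ± 0.10 in MWA and 1.16 ± 0.20 in MWA+2DG (difference -0.00, exact permutation p = 0.976). In whole nodes, fewer cells of a type and less RNA per cell cannot be told apart.

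Among the follicle genes, the B cell chemokine Cxcl13 had the largest spread of any member in the MWA group (coefficient of variation 39.4%). It was at 254, 412, 193, 207 and 168 FPKM in MWA libraries 1 to 5 and at 339, 329, 188, 225 and 227 FPKM in MWA+2DG libraries 1 to 5. The high values were replicates 1 and 2 of either group, at 333 ± 64.5 FPKM (SD, n = 4), against 201 ± 22.8 FPKM (SD, n = 6) in replicates 3 to 5. Cxcl13 was the only member whose replicate sets did not overlap (log2 difference between sets 0.71). Between treatments the log2 fold change was 0.12 (SE 0.25, 95% interval -0.42 to 0.66, exact permutation p = 0.698), with 0.05 and 0.17 within the sets.

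The marker lists of some other node cell types also split by replicate set. The summed FPKM of follicular dendritic cell genes (Clu highest) was 790 to 944 in replicates 1 and 2 and 617 to 773 in replicates 3 to 5, and that of high endothelial venule genes (Glycam1 highest) was 538 to 905 against 239 to 448. Migratory dendritic cell genes split as well, at 369 to 449 in replicates 1 and 2 and 266 to 361 in replicates 3 to 5. The sets overlapped for fibroblastic reticular cell genes (147 to 185 and 151 to 158) and for lymphatic endothelial genes (18.7 to 33.9 and 17.6 to 23.5). Between treatments the first 2 lists overlapped, at 653 to 925 against 617 to 944 and at 355 to 761 against 239 to 905. The part of these cell types in the level of Cxcl13 was not tested.

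The CXCL13 receptor gene Cxcr5 was at 51.5, 66.1, 59.6, 61.3 and 55.4 FPKM in the MWA group and at 45.3, 51.5, 51.4, 50.6 and 68.7 FPKM in the MWA+2DG group. Of the MWA+2DG libraries, 3 were below all MWA libraries, and replicate 5 was the highest of all 10. For MWA+2DG replicate 3 this was nearly a tie, at 51.45 FPKM against 51.46 FPKM in MWA replicate 1. On the log2 scale the difference was -0.14 (SE 0.11, 95% interval -0.39 to 0.11, exact permutation p = 0.262), and -0.27 and -0.06 within the replicate sets. Without MWA+2DG replicate 5 it was -0.23 (limma, unadjusted P = 0.0222). Adipose genes summed to 4.53 to 18.6 FPKM in the MWA group and to 7.48, 54.4, 19.7, 5.16 and 97.2 FPKM in MWA+2DG libraries 1 to 5. The same replicate 5 was highest and replicate 2 was next. Of 7 listed adipose genes, 4 passed the filter, with log2 fold changes of 0.76 to 1.16, none past the authors' rule. Adipoq (0.681 FPKM in MWA, 3.63 in MWA+2DG) and Cidec (0.45 and 2.37) reached the filter only through the MWA+2DG group. Their positive sign is therefore no separate result. The part of adipose tissue in the levels of the 9 genes was not tested.

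B cell genes had small differences of the same sign. In a list of 12, 11 had negative log2 fold changes, with a median of -0.07 and none past the authors' rule, and the summed FPKM was 1719 to 1927 in MWA and 1593 to 1841 in MWA+2DG (Cd79a highest). The log2 ratio of Cxcr5 to their mean was -0.52 ± 0.11 in MWA and -0.58 ± 0.31 in MWA+2DG (exact permutation p = 0.778). Leaving out MWA+2DG replicate 5 gave -0.19 (exact permutation p = 0.0317, not adjusted).

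Gpr183, the oxysterol receptor, was at 31.4, 26.9, 27.6, 22.8 and 28.5 FPKM in the MWA group and at 26.6, 28.5, 30.0, 26.0 and 16.7 FPKM in the MWA+2DG group. Replicate 5 of the MWA+2DG group was the lowest library, where Cxcr5 was at its highest, and the other MWA+2DG values lay within the MWA range. Gpr183 had a log2 fold change of -0.12 (SE 0.15, 95% interval -0.45 to 0.21, exact permutation p = 0.571), with -0.08 and -0.15 within the sets, and it was 0.02 without that library. Across the 10 libraries, deviations of Gpr183 and Cxcr5 from their group means had a Pearson r of -0.82, which rests on that library and was -0.42 without it.

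The enzymes that make and break down the GPR183 ligand were low. Ch25h, which starts its synthesis from cholesterol, had 6.80, 7.29, 3.07, 1.89 and 5.99 FPKM in the MWA group and 4.46, 4.42, 3.80, 4.14 and 3.38 FPKM in the MWA+2DG group. The MWA+2DG libraries all lay inside the wider MWA range. Hsd3b7, which degrades the ligand, was at 8.77 ± 0.966 and 8.31 ± 0.824 FPKM, and Cyp7b1 was below the filter at 0.489 to 1.37 FPKM. Neither of the 2 tested genes passed the authors' rule.

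The retention and egress genes are Cxcl12, its receptor Cxcr4, and S1pr1. Cxcl12, made by stromal cells, was at 19.1, 21.3, 23.3, 24.2 and 27.4 FPKM in the MWA group and at 27.9, 21.0, 19.5, 20.3 and 15.9 FPKM in the MWA+2DG group. The highest and the lowest of the 10 values were both MWA+2DG libraries. The log2 fold change was -0.15 (SE 0.14, 95% interval -0.45 to 0.16, exact permutation p = 0.357), with opposite signs in the 2 replicate sets, 0.25 and -0.41.

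Cxcr4 was at 163, 134, 83.4, 68.9 and 132 FPKM in the MWA group and at 82.2, 100.2, 143, 75.6 and 84.9 FPKM in the MWA+2DG group. Both groups contained high and low libraries, and no MWA+2DG library lay outside the MWA range. The means were 116 ± 39.1 and 97.2 ± 27.3 FPKM, a log2 fold change of -0.22 (SE 0.25, 95% interval -0.77 to 0.32, exact permutation p = 0.437). It was -0.70 in replicates 1 and 2 and 0.09 in replicates 3 to 5.

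S1pr1, the exit receptor, had the smallest ratio of highest to lowest library of the 9 (1.36), at 44.8, 45.5, 56.8, 56.0 and 57.8 FPKM in the MWA group and at 60.7, 49.7, 58.0, 56.8 and 51.9 FPKM in the MWA+2DG group. MWA replicates 1 and 2 were the 2 lowest libraries, and 2 MWA+2DG libraries were above all MWA libraries. S1pr1 had a log2 fold change of 0.09 (SE 0.10, 95% interval -0.12 to 0.31, exact permutation p = 0.349), and the interval on a linear scale was 0.918 to 1.24. The sign differed between the sets, 0.28 and -0.03. Per T cell gene, the log2 ratio was 0.63 ± 0.38 in MWA and 0.54 ± 0.16 in MWA+2DG (exact permutation p = 0.643).

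**Figure D2:**
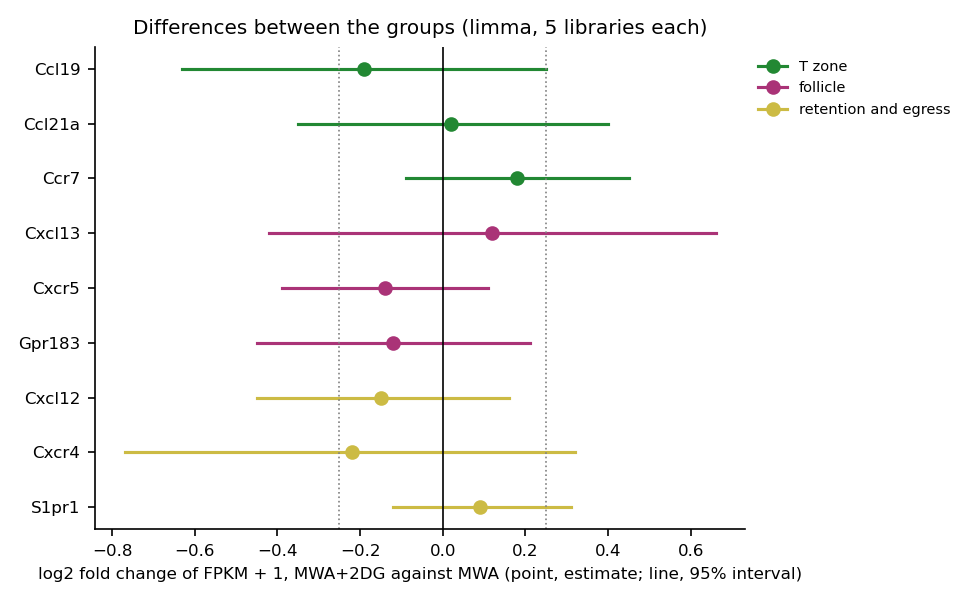
Log2 fold change of FPKM + 1 between the MWA+2DG and MWA groups for the 9 genes (horizontal axis; points, limma estimates over 5 libraries per group; lines, 95% intervals; dotted lines, 0.25 in either direction). Every interval includes 0, and the widest are those of Cxcr4 (-0.77 to 0.32) and Cxcl13 (-0.42 to 0.66).

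Ratios of members within a library set T zone against follicle genes and retention against egress genes, and do not depend on the scaling of a library as a whole other than through the pseudocount. None of 9 such log2 ratios passed the test between the groups (exact two-sided permutation tests, adjusted p between 0.893 and 0.976 over the 9). Follicle against T zone chemokines gave -2.31 ± 0.50 in MWA and -2.21 ± 0.30 in MWA+2DG for Cxcl13 to Ccl21a (exact permutation p = 0.754; differences within the sets -0.07 and 0.21), and 0.68 ± 0.50 and 0.99 ± 0.57 for Cxcl13 to Ccl19 (exact permutation p = 0.397). The receptor ratio, Cxcr5 to Ccr7, had the lowest p of the 9. It was -0.87, -0.21, -0.23, 0.07 and -0.58 in the MWA group and -0.98, -0.60, -0.89, -0.63 and -0.31 in the MWA+2DG group.

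Of the MWA+2DG libraries, 4 of 5 were below the MWA mean of this receptor ratio and 2 were below all MWA libraries. The difference was -0.32 (exact permutation p = 0.127, adjusted p = 0.893 over the 9), with the same sign in both replicate sets, -0.25 and -0.36. Without MWA replicate 1, the library with the lowest MWA ratio, it was -0.45 (exact permutation p = 0.0397, not adjusted). The retention ratio, Cxcr4 to S1pr1, was 1.08 ± 0.65 and 0.76 ± 0.38 (exact permutation p = 0.365), and its difference had opposite signs in the 2 sets, -0.98 and 0.12. Gpr183 to S1pr1 was -0.90 ± 0.29 and -1.11 ± 0.30 (exact permutation p = 0.302).

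**Figure D3:**
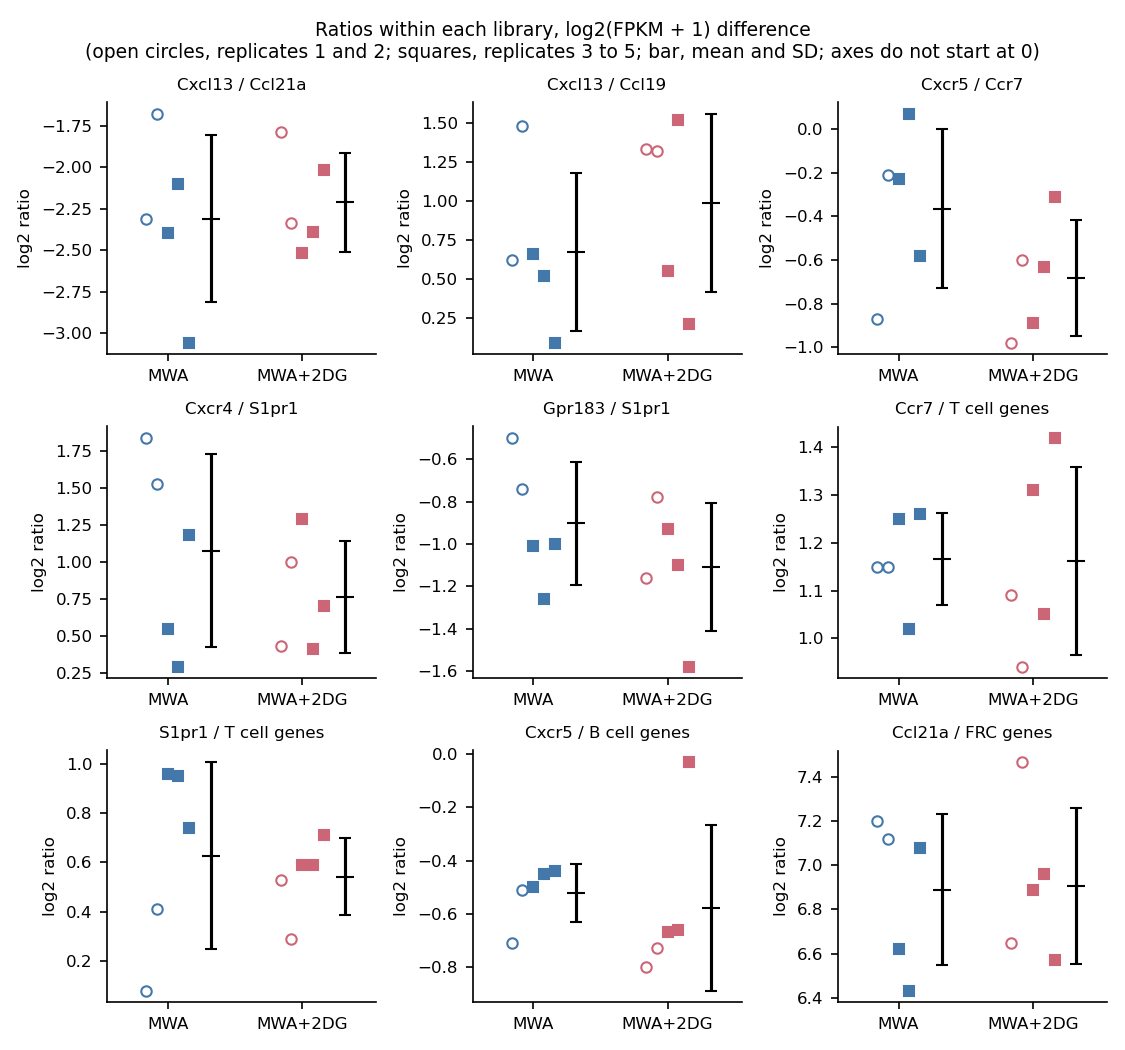
The 9 log2 ratios (vertical axes, differences of log2(FPKM + 1), which do not start at 0) in the MWA and MWA+2DG libraries, with replicates 1 and 2 as open circles, replicates 3 to 5 as squares and the mean and SD of each group as a bar. Cxcr5 to Ccr7 shows 4 of 5 MWA+2DG libraries below the MWA mean, and all groups overlap.

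Ccl21a was also set against genes of fibroblastic reticular cells, and against those of no other cell type. The log2 ratio of Ccl21a to the mean of 11 fibroblastic reticular cell genes was 6.89 ± 0.35 in MWA and 6.91 ± 0.35 in MWA+2DG (exact permutation p = 0.944). The summed FPKM of those genes was 147 to 158 and 151 to 185 (Thy1 highest, a gene that T cells express too), with 5 of 11 log2 fold changes positive and a median of -0.01.

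The near-identical copies were counted with Ccl21a. Ccl21a held 84.7% to 88.3% of the summed FPKM of the 5 genes in each library. The sum was 1367 ± 254 FPKM in MWA and 1394 ± 308 FPKM in MWA+2DG (log2 difference 0.02, exact permutation p = 0.897). Ccl21b, for example, was at 50.7 ± 11.5 and 50.9 ± 8.71 FPKM.

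The Ccl19 copies divided unevenly between the groups. These copies were found through their sequence and are described with their values already seen. Gm2564 was at 16.8, 12.6, 37.2, 15.7 and 11.6 FPKM in the MWA group and at 52.5, 50.5, 50.3, 30.6 and 64.1 FPKM in the MWA+2DG group. All MWA+2DG libraries but replicate 4 were above all MWA libraries, and MWA replicate 3 stood well above the other MWA libraries. Gm2564 had a log2 fold change of 1.44 (SE 0.29, 95% interval 0.80 to 2.09, limma unadjusted P = 0.000446, adjusted p = 0.995), the third lowest P of all genes tested. Within the replicate sets it was 1.75 and 1.24. Without MWA replicate 3 it was 1.71, and it passed the authors' rule in all 19 alternatives.

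The sequence-identical Ccl19-ps3 had lower values in MWA+2DG, at 67.9 ± 15.1 FPKM against 89.7 ± 17.2 FPKM in MWA (log2 fold change -0.40, SE 0.19, limma unadjusted P = 0.055). As a share of the summed FPKM of Ccl19 and its 4 copies, Gm2564 was 4.25% to 16.1% in MWA libraries and 18.0% to 19.1% in MWA+2DG libraries, and Ccl19-ps3 26.3% to 35.4% and 23.8% to 26.8%. Ccl19 itself held 47.7% to 57.6%. The sum of all 5 was 273 ± 27.7 FPKM in MWA and 266 ± 69.1 FPKM in MWA+2DG, a log2 difference of -0.08 (exact permutation p = 0.73). Of the 31-base stretches of the Gm2564 transcript (707 bases), 77.7% also occur in a Ccl19 transcript, so FPKM of the single copies depends on how the authors' software shared reads among them, and its part in these differences was not tested.

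**Figure D4:**
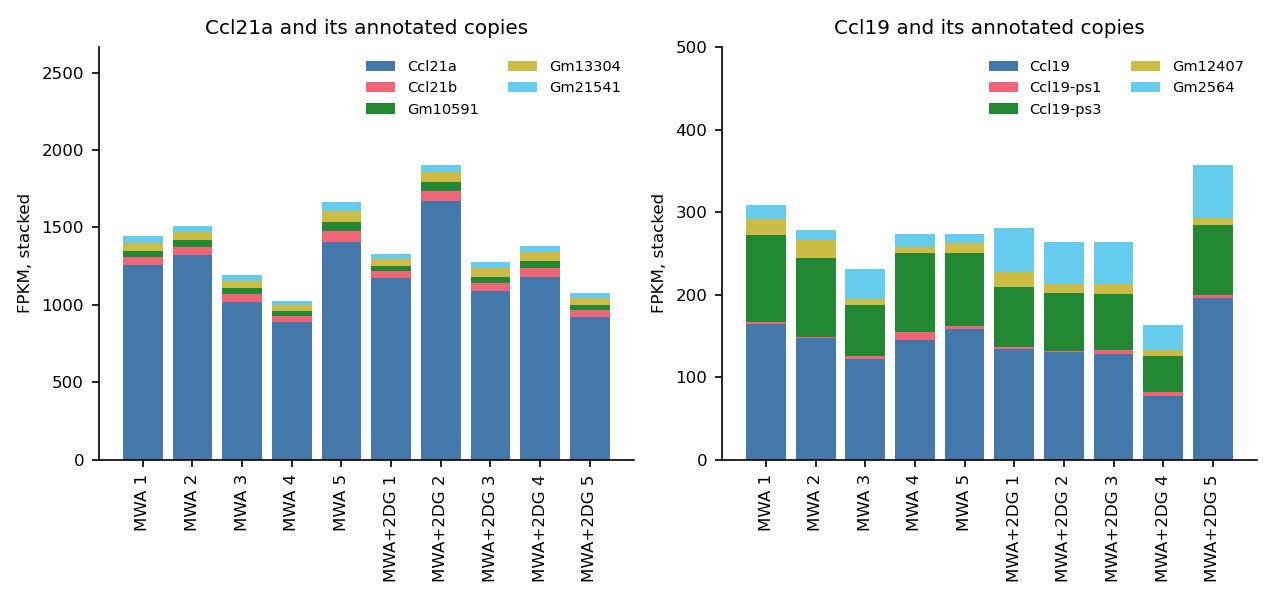
FPKM of Ccl21a and its 4 copies (left) and of Ccl19 and its 4 copies (right), stacked from 0 for each of the 10 libraries. Ccl21a makes up 84.7% to 88.3% of each stack on the left, while Gm2564 makes up 4.25% to 16.1% of the right stacks in MWA and 18.0% to 19.1% in MWA+2DG libraries.

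Other genes of the same pathways were read from lists of 75 genes in all, of which 70 were tested. None passed an adjusted p below 0.05 (limma), and 4 passed the authors' rule, 2 with higher and 2 with lower values in MWA+2DG. Over all genes tested, 2.82% passed that rule. Among 8 tested genes for other homeostatic chemokines, receptors and scavengers, 4 log2 fold changes were positive and 4 negative (median -0.00) and none passed the rule. The 2 of lowest P were Ackr4, a scavenger of CCL19 and CCL21, at 1.64 ± 0.262 and 1.32 ± 0.61 FPKM (log2 fold change -0.22), and Ccl20, the CCR6 ligand, at 6.62 ± 1.56 and 8.57 ± 4.57 FPKM (0.21). Ccl25, Ccl27a and Ccl28 were below the filter.

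The S1P and egress list held 12 tested genes, 8 with positive and 4 with negative log2 fold changes (median 0.02), of which 1 passed the rule in each direction. S1pr4, an S1P receptor of lymphocytes, was at 30.0, 27.2, 30.6, 26.4 and 35.7 FPKM in MWA and at 35.9, 35.0, 41.0, 43.0 and 36.0 FPKM in MWA+2DG libraries. All MWA+2DG libraries but replicate 2 were above all MWA libraries. S1pr4 had a log2 fold change of 0.34 (SE 0.10, limma unadjusted P = 0.0048, adjusted p = 0.995; exact permutation p = 0.0159), and 0.30 and 0.37 within the replicate sets.

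S1pr2, the receptor that confines germinal centre B cells, was at 9.17, 13.8, 12.5, 14.6 and 13.3 FPKM in MWA and at 8.60, 8.87, 10.3, 10.3 and 7.35 FPKM in MWA+2DG libraries. MWA replicate 1 lay among the MWA+2DG values, and the other MWA libraries lay above them all. The log2 fold change was -0.43 (SE 0.13, limma unadjusted P = 0.00633, adjusted p = 0.995; exact permutation p = 0.0238), and -0.33 and -0.50 within the sets. Klf2, the factor that drives S1pr1 transcription, was at 67.2 FPKM in MWA and 80.2 FPKM in MWA+2DG on average (log2 fold change 0.23, limma unadjusted P = 0.17), and Cd69, which removes S1PR1 from the cell surface, at 9.53 and 8.64 FPKM (-0.14). Klf2 and Cd69 lie outside the rule for naming genes and were chosen for their role. S1pr5 was below the filter.

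**Figure D5:**
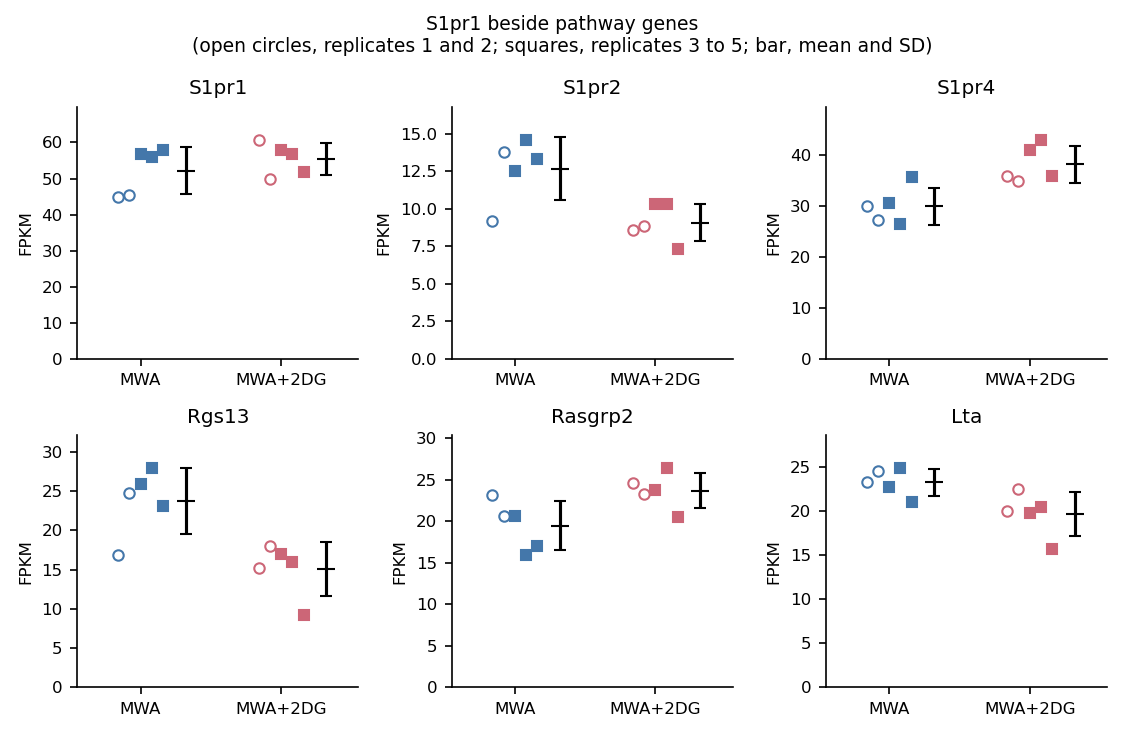
FPKM (vertical axes, from 0) of S1pr1 and of 5 pathway genes in the MWA and MWA+2DG libraries, with replicates 1 and 2 as open circles, replicates 3 to 5 as squares and the mean and SD of each group as a bar. S1pr4 and Rasgrp2 have higher and S1pr2 and Rgs13 lower means in MWA+2DG, while S1pr1 is at 52.2 and 55.4 FPKM and Lta at 23.4 and 19.7 FPKM.

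Signalling genes downstream of the chemokine receptors gave 13 positive and 11 negative log2 fold changes among 24 (median 0.03), and again 1 passed the rule in each direction. Rasgrp2, which activates the integrin switch Rap1, was at 19.5 ± 2.96 FPKM in MWA and 23.7 ± 2.13 FPKM in MWA+2DG (log2 fold change 0.28, SE 0.11, limma unadjusted P = 0.0263), and passed the rule in 15 of 19 alternatives. Rgs13, which dampens chemokine receptor signalling in germinal centre B cells, was at 16.9, 24.8, 25.9, 27.9 and 23.1 FPKM in MWA and at 15.2, 18.0, 17.0, 16.0 and 9.21 FPKM in MWA+2DG libraries. As for S1pr2, MWA replicate 1 lay among the MWA+2DG values and the other MWA libraries above them. The log2 fold change was -0.63 (SE 0.18, limma unadjusted P = 0.00478, adjusted p = 0.995; exact permutation p = 0.0238), and -0.30 and -0.86 within the sets.

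S1pr2 and Rgs13 are also germinal centre B cell markers. All 9 genes of that list had negative log2 fold changes (median -0.51), and 7 passed the authors' rule, the 2 included. Over all genes tested, 1.87% passed that rule with lower values and 52.6% had a log2 fold change above 0. None of the 9 passed an adjusted p below 0.05 (limma). The summed FPKM was 189 to 307 in MWA and 126 to 200 in MWA+2DG libraries (Basp1 highest), and its part in the levels of S1pr2 and Rgs13 was not tested. The list of follicular helper T cells, which also carry CXCR5, had 3 positive and 3 negative log2 fold changes (median 0.06) and summed to 71.7 to 80.6 FPKM in MWA and 60.8 to 77.9 FPKM in MWA+2DG.

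Adhesion genes for entry through high endothelial venules had 7 positive and 6 negative log2 fold changes (median 0.03), and none of the 13 passed the rule. Itga4, an integrin subunit, was at 9.14 ± 1.72 and 11.0 ± 1.50 FPKM (log2 fold change 0.26, limma unadjusted P = 0.0761).

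Lymphotoxin signalling maintains the stromal cells that make these chemokines. Of its 11 genes, 9 had positive and 2 negative log2 fold changes (median 0.03), and none passed the rule. Lta (lymphotoxin alpha) was lower in 4 of 5 MWA+2DG libraries than in any MWA library, at 23.3, 24.6, 22.8, 24.9 and 21.1 FPKM in MWA and 20.0, 22.6, 19.8, 20.5 and 15.7 FPKM in MWA+2DG. Its log2 fold change was -0.24 (SE 0.09, limma unadjusted P = 0.0286, adjusted p = 0.995), short of the 0.25 that the rule asks, and it passed in 3 of 19 alternatives. The receptor gene Ltbr was at 7.48 ± 0.845 and 8.55 ± 1.35 FPKM (log2 fold change 0.17).

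Defining markers of the expected node cells were present and those of muscle nearly absent. Summed skeletal muscle genes were at most 1.16 FPKM. Epithelial genes, which 4T1 cells and other epithelium would carry, summed to 2.34 to 5.65 FPKM in MWA and 2.05 to 11.7 FPKM in MWA+2DG. The highest sum was that of MWA+2DG replicate 5. Lymphatic endothelial genes summed to 18.0 to 33.9 and 17.6 to 29.7 FPKM, and genes of migratory dendritic cells, which enter along CCL21, to 266 to 449 and 272 to 398 FPKM (Tmem123 highest). Of the latter list, 3 of 7 log2 fold changes were positive (median -0.01). The part of these cell types in the levels of the 9 genes was not tested.

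For each member, the 3 genes whose deviations from the group mean were most alike over the 10 libraries were taken from all genes tested. For Cxcr4 they were Btg1 (Pearson r = 0.99), Relt (0.98) and Tsc22d3 (0.96), for Gpr183 Tesc (0.98), Tmem120b (0.98) and Tmem41a (0.97), and for Ccl21a Commd7, Lrpap1 and Rxrb (0.97 each). For Cxcl13 they were Aplp2 (0.96), Jcad (0.95) and Aire (0.95), which after centring within replicate sets gave 0.80, 0.96 and 0.75. For Cxcr5 they were Acsl1 (0.96), Gm15821 (0.94) and Trex1 (0.93). Ccr7 was most like Tmem251 (0.94), Epb41l4aos (0.93) and Serpinb6b (0.92), and Ccl19 most like Tm4sf1 (0.93), Gm45837 (0.92) and Rgs1 (0.91), a feedback regulator from the signalling list. Cxcl12 was most like Ankrd39 (0.92), Man1b1 (0.91) and Gamt (0.90), and S1pr1 most like Mir7678 (0.93), Umps (0.91) and Slpi (0.90). Among the members, the highest r was that of Ccr7 and Cxcr4 (0.86, and 0.79 within the sets), and within the sets that of Cxcl12 and S1pr1 (0.90, and 0.69 over all libraries), while Ccr7 and Cxcl13 gave 0.02 over all libraries and -0.78 within the sets. Chosen as the highest of 13334 genes over 10 libraries, these values are a description only.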

How the data were processed

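RNA from 10 TDLN samples was sequenced from poly(A)-selected, strand-marked libraries, and the authors deposited FPKM per Ensembl gene, 1 table per sample, from StringTie and ballgown. The submitters' processing notes name cutadapt 1.9, HISAT2 2.0.4, UMI-tools, StringTie 1.3.4d and mm9. The sources used here do not say how reads that match several genes were counted. FPKM values hold no read counts, so depth is unknown and no counting interval can be given. Coordinates and sequences are those of the GRCm38 reference with GENCODE M21 and were not converted.

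Gene symbols matched 33541 of 33643 identifiers, and 57 symbols with several identifiers were summed. Genes averaging 1 FPKM or more (13334) were tested in R 4.3.3 with limma 3.58.1, on log2(FPKM + 1), without covariates and with Benjamini-Hochberg adjustment over all genes. The fit was tested on simulated data. Fold changes are on the log2(FPKM + 1) scale, which understates those of low genes. Single values were compared by exact two-sided permutation over 252 regroupings, whose smallest p is 0.00794. The labels name 5 replicates per group without saying that each is a separate animal, so p-values measure the spread between these samples. Copies were genes that hold at least 50% of the 31-base stretches of a member's coding sequence. Named were all members, the genes of each pathway list past the authors' rule (otherwise the 2 of lowest P), the highest gene of each marker list, and the 3 genes most like each member. Exceptions are stated beside the values, and a few genes that met the rule are not reported here. The members and lists were chosen with earlier results of these data known. Alternatives were pseudocount 0.1, no filter or one of 5 FPKM, limma-trend, libraries rescaled to 1000000, quantile or median ratio normalization, replicate number as a block, replicate set as a term, each library left out in turn, and summed copies.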

Additional observations from a re-analysis of the deposited data

Results flagged for a closer look

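In 36 groups of 5 libraries (the members and the log2 ratios), the distance of the highest or lowest library from its nearest neighbor was compared with the range of the group (Dixon's test at the 95% level), which chance flags in about 1 group of 20. Cxcr5 in MWA+2DG replicate 5, at 68.7 FPKM, stood apart from the other MWA+2DG libraries. The log2 ratio of Cxcr5 to B cell genes stood apart in the same library, at -0.03, and in MWA replicate 1, at -0.71. MWA+2DG replicate 5 also had the lowest Gpr183 (16.7 FPKM) and Cxcl12 (15.9 FPKM) and the highest Ccl19 (196 FPKM) of the 10 libraries. Summed adipose genes (97.2 FPKM) and summed epithelial genes (11.7 FPKM) were highest in the same library. Whether these values have a common origin was not tested.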

How the results depend on the processing

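Of 600 values recomputed under an alternative, 587 were counted as keeping their direction. That count includes every value of the log2 ratio of Ccr7 to T cell genes. Its main difference was -0.00, and it ranged from -0.07 to 0.05 with a library left out, so its sign was not stable. The count over all genes by the authors' rule was 230 with a filter of 5 FPKM, where fewer genes were tested, and 280 to 513 when a library was left out (80 to 222 higher and 177 to 315 lower, with 80 without MWA replicate 5, 83 without MWA+2DG replicate 1, 200 without MWA replicate 1 and 222 without MWA+2DG replicate 5). At an adjusted p below 0.05, 0 to 1 genes passed with a library left out (without MWA replicate 2, Ighv1-26 at a log2 fold change of -1.60, limma adjusted p = 0.0182), and 0 to 1 members passed the authors' rule (without MWA replicate 1, Ccr7). With a library left out, the log2 fold change ranged from -0.10 to 0.11 for Ccl21a (-0.02, -0.07 and -0.10 without MWA replicates 3 and 4 and MWA+2DG replicate 2), from -0.18 to 0.02 for Gpr183 (0.02 without MWA+2DG replicate 5) and from -0.09 to 0.13 for Ccl21b, whose sign turned at -0.01, -0.02, -0.06 and -0.09. It ranged from 0.00 to 0.32 for Cxcl13 (lowest without MWA replicate 5, highest without MWA replicate 2), from -0.39 to -0.09 for Cxcr4 (without MWA replicates 4 and 1), from -0.25 to -0.06 for Cxcl12 (without MWA+2DG replicates 1 and 5), from -0.34 to -0.01 for Ccl19, from 0.09 to 0.26 for Ccr7, from -0.23 to -0.09 for Cxcr5 and from 0.04 to 0.13 for S1pr1. Differences of log2 ratios ranged from -0.45 to -0.21 for Cxcr5 to Ccr7, from -0.19 to -0.00 for Cxcr5 to B cell genes, from -0.09 to 0.25 for Cxcl13 to Ccl21a (-0.09 without MWA replicate 5, -0.01 without MWA+2DG replicate 1), and from -0.12 to 0.11 for Ccl21a to fibroblastic reticular cell genes (-0.05, -0.10 and -0.12 without MWA replicates 3 and 4 and MWA+2DG replicate 2). The cause was not tested.

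Deviations of same-numbered libraries correlated at 0.331, 0.501, 0.11, 0.0334 and 0.151, and 3 of 10 libraries correlated best with their own number, so the numbers were not taken to pair the samples. With the replicate number as a block, 449 genes and 0 members passed the authors' rule, and 0 genes an adjusted p below 0.05. Rescaling to 1000000 moved the median of all genes to 0.07. Without read counts, the depth behind low genes such as Ackr4 and Ch25h is unknown.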
